A study of Arabidopsis thaliana with 48 samples.

Results

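The libraries described here are the nuclear and the cytoplasmic fractions of Arabidopsis thaliana tho5ab plants held at 37 °C for 3 h, 6 libraries of each fraction, 12 of the 48 libraries in the series. They were taken by genotype, fraction and temperature in the sample labels, and no measured value entered that choice. tho5ab is a double mutant in THO5A and THO5B, the pair of genes for subunit 5 of the THO complex, in the Col-0 background, and the labels name no allele. Plants were 14 d old, grew in long days at 21 °C, and were collected straight from 37 °C without recovery. The labels call the tissue seedling, while the extraction protocol names rosettes, and fractions came from differential centrifugation. Col-0 at 37 °C and tho5ab kept at 21 °C, with 6 libraries per fraction each, serve below as comparators. Nothing in the labels says whether libraries of a group came from separate plants, so p-values measure the spread between these libraries. The question was which transcripts are relatively nuclear and which relatively cytoplasmic, in a series on export defects under heat.

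THO is a complex that binds mRNA while it is being made and hands it to adaptors of the ALY family and the helicase UAP56, which lead to export through the nuclear pore. Transcripts that wait for export, are still being spliced or are held back stay in the nucleus, whereas stable translated mRNA gathers in the cytoplasm. In plants, heat brings rapid synthesis of chaperone mRNA, driven by heat shock transcription factors.

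Total counts were 5834668 to 19347630 in the nuclear libraries and 1147881 to 2091811 in the cytoplasmic ones, so cytoplasmic values of low genes carry the larger counting error. The 100 genes with the most counts took 21.9% to 24.3% of a nuclear library and 49.6% to 58.7% of a cytoplasmic one. Levels are CPM, counts divided by the library total in units of 1000000 after TMM scaling, which sets a typical gene near no change. With 17981 genes tested by edgeR's quasi-likelihood test, 6659 genes (37%) were higher in nuclei and 4834 (26.9%) were lower in nuclei at an adjusted p under 0.05. The median log2 fold change of nuclei over cytoplasm over all tested genes was 0.42. With library totals alone as the scale that median was 1.78, and 12245 genes were higher and 2160 lower, so the place of 0 depends on the scaling. Of all called genes, 57.9% were higher in nuclei under TMM and 85% under library totals. Fold changes and directions below are on the TMM scale, relative to 0 and not to the median gene, and a direction that turns under library totals is named as such. Library totals moved most values towards the nuclear side, so that scale could turn cytoplasmic directions but hardly nuclear ones. The gene lists below were chosen with earlier results of these data known. Their counts beside the shares of all tested genes are therefore descriptions, not tests.

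The targeted genes were checked first. THO5B had 9 counts among 95093908 over the 6 nuclear libraries and 0 among 10693250 over the 6 cytoplasmic libraries, where a count of 0 allows up to 3, and 37 to 140 counts in each Col-0 nuclear library at 37 °C. THO5A was not absent, and its count does not tell a truncated transcript from a whole one. It had 305, 428 and 2448 counts (lowest, median and highest) in tho5ab nuclei and 1, 4 and 43 counts in tho5ab cytoplasm. These are 15.6 to 118 CPM and 1.69 to 35.5 CPM, against 175 to 205 CPM in Col-0 nuclei at 37 °C. The 118 and 35.5 CPM both belong to replicate 7, which stood apart from the other nuclear libraries for this gene, while in cytoplasm replicate 2 had 19.8 CPM. At 21 °C THO5A was not lower in the mutant, with 76.3 to 118 CPM in tho5ab nuclei against 30.8 to 37.6 CPM in Col-0 nuclei. At 37 °C THO5A itself stood at 1.67 ± 0.45 in nuclei over cytoplasm of tho5ab (adjusted p = 0.00109, edgeR), with overlap between the fractions. Without replicate 7, 6453 genes were higher and 4602 lower in nuclei.

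The cytoplasmic end of the axis held transcripts of photosynthesis, the plastid, metal binding and small stress proteins. All 32 tested light harvesting and photosystem genes were lower in nuclei, with a median log2 fold change of -4.74 and a range of -6.17 to -2.56, and in all 32 the nuclear and cytoplasmic libraries did not overlap, against 17.8% of all tested genes with nuclei wholly below cytoplasm. All 5 genes of Rubisco, the carbon-fixing enzyme, and its activase were lower as well (median -3.86), and so were the 4 tested of 5 metallothioneins (median -5.55). None of the genes in these 3 lists turned direction under library totals. LHCA2, an antenna protein of photosystem I, had 120, 164 and 180 CPM in nuclei and 5194, 12700 and 15132 CPM in cytoplasm (log2 fold change -6.17 ± 0.20, adjusted p = 8.76e-32, edgeR; here and below ± is an approximate standard error and n is 6 against 6). DRT112, a plastocyanin that carries electrons to photosystem I and whose gene has no intron, had 120, 123 and 156 CPM in nuclei and 5131, 9693 and 13651 CPM in cytoplasm (-6.20 ± 0.17, adjusted p = 3.32e-34, edgeR). For both genes the lowest cytoplasmic library lay far above the highest nuclear one, and the rule by which they were named required no overlap.

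The transcript farthest towards the cytoplasm among the named genes was MT2B, a metallothionein, one of the small cysteine-rich proteins that bind metals. MT2B had 6.65, 8.58 and 12.2 CPM in nuclei and 1319, 1493 and 2604 CPM in cytoplasm, which is 184-fold lower in nuclei (-7.52 ± 0.26, adjusted p = 1.24e-30, edgeR). Its whole coding sequence is shown because it is short enough to see the protein type at a glance, with the 14 cysteine codons of 77 in capitals (TAIR10.1 reference of RefSeq, chr5:506755-507164, minus strand, 2 coding exons joined).
MT2B: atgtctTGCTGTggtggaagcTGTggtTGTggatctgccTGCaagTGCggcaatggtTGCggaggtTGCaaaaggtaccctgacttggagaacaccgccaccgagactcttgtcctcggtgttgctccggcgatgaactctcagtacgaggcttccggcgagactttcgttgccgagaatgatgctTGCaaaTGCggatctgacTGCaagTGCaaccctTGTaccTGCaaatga
Its log2 fold change was -7.22 in Col-0 at 37 °C and -7.61 in tho5ab at 21 °C. Among the other lowest genes by the naming rule were GS2, the plastid glutamine synthetase (-6.14), KIN1, a cold- and abscisic acid-induced small protein (-6.12), CYS1, a cysteine protease inhibitor (-5.84), and the plastid ribosomal proteins PSRP6 (-5.78), GHS1 (-5.71) and PRPL35 (-5.55). LHCA2 and GHS1 have near-identical copies in the reference, so their counts may hold reads of those copies. The thioredoxin TRX-M4 (-5.55), the photosystem I subunit PSAL (-5.59) and MLP328, a major latex protein-like protein (-6.43), complete that set of 12 with DRT112, LHCA2 and MT2B.

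The translation apparatus was also on the cytoplasmic side. All 22 cytosolic ribosomal protein genes were lower in nuclei (median -2.27), and so were all 13 translation factors (median -2.13). PAB2, a poly(A)-binding protein, stood at -2.66, LOS1, an elongation factor, at -2.1, and RPL3A, a protein of the large ribosomal subunit, at -1.90. Under library totals 4 of the 22 ribosomal protein genes and 2 of the 13 translation factors changed sign, and EIF4G changed sign also with DESeq2 size factors. All 12 tested of 13 plasma membrane aquaporins, which are water channels, were lower in nuclei (median -1.92), of which 3 changed sign under library totals.

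**Figure D1:**
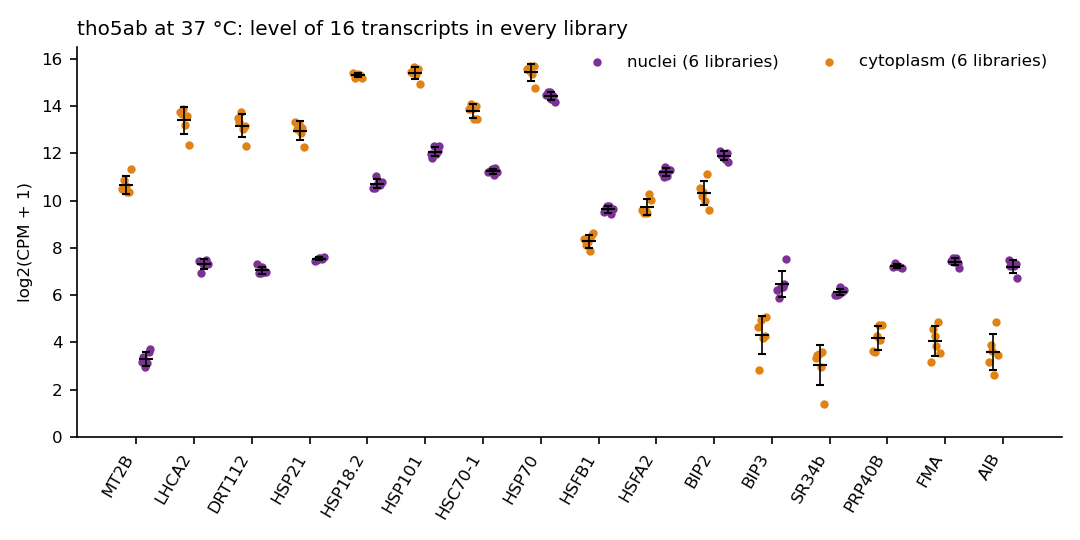
Level of 16 transcripts in each of the 12 libraries, on a log2 scale of CPM plus 1, with 6 nuclear libraries in purple and 6 cytoplasmic libraries in orange; bars give the mean and SD. The metallothionein, photosynthesis and chaperone transcripts at the left lie higher in cytoplasm, and the transcripts from HSFB1 to the right lie higher in nuclei.

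The mRNA of the heat chaperones was on the cytoplasmic side and that of heat shock transcription factors mostly on the nuclear side. All 9 cytosolic small heat shock protein genes (median -4.03) and all 6 genes for small heat shock proteins of organelles (median -3.31) were lower in nuclei, and none changed sign under library totals. All 17 genes for HSP70, HSP90 and HSP100 chaperones were lower as well (median -2.20), of which HSP70, HSP70B, cpHsc70-2, mtHsc70-1 and CLPB4 changed sign under library totals. HSP18.2, a cytosolic small heat shock protein that keeps unfolded proteins soluble, had 1493, 1651 and 2084 CPM in nuclei and 37704, 40474 and 43701 CPM in cytoplasm (-4.58 ± 0.25, adjusted p = 1.62e-22, edgeR). HSP21, its plastid relative, had 172, 186 and 193 CPM in nuclei and 4866, 8548 and 10211 CPM in cytoplasm (-5.48 ± 0.24, adjusted p = 2.49e-26, edgeR). HSP101, which pulls proteins out of aggregates, had 3553, 4190 and 5043 CPM in nuclei and 31420, 44189 and 51702 CPM in cytoplasm (-3.33 ± 0.20, adjusted p = 5.33e-21, edgeR). The fractions did not overlap for any of the 3. The span of HSP101 overlaps another gene, so its count may hold reads of that gene.

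HSP70, the heat-inducible cytosolic chaperone, lay closer to 0 than the median of that list, with 18276, 22526 and 24801 CPM in nuclei and 27702, 47869 and 53068 CPM in cytoplasm (-1.03 ± 0.14, adjusted p = 6.66e-09, edgeR). HSC70-1, the cognate form made without heat, had 2198, 2391 and 2675 CPM in nuclei and 11115, 15037 and 17546 CPM in cytoplasm (-2.57 ± 0.13, adjusted p = 6.49e-24, edgeR). The fractions did not overlap for either gene, although under library totals HSP70 stood at 0.36 and HSC70-1 at -1.18. Among the 16 co-chaperones and other heat response genes, 14 were lower in nuclei (median -1.96), of which 3 changed sign under library totals. BAG6, a calmodulin-binding co-chaperone (0.75), and AT3G14200, a DnaJ-type protein (1.14), were higher.

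Of 21 genes for heat shock transcription factors, 19 were tested, 13 were higher in nuclei and 1, HSFB4, was lower (-1.24, and 0.12 under library totals). Their median was 1.34. HSFA2, the factor that prolongs the heat response, had 2057, 2408 and 2779 CPM in nuclei and 705, 765 and 1223 CPM in cytoplasm (1.46 ± 0.25, adjusted p = 1.33e-06, edgeR). HSFB1, a repressor-type factor, had 683, 806 and 882 CPM in nuclei and 232, 315 and 390 CPM in cytoplasm (1.34 ± 0.21, adjusted p = 2.42e-07, edgeR). Neither gene overlapped between fractions, and the constitutive master regulators HSFA1A (2.63), HSFA1B (1.4), HSFA1D (0.98) and HSFA1E (2.86) were higher in nuclei too. HSFA1E had 0 CPM in the median cytoplasmic library, so its size depends on the prior count. HSFA7A (-0.55) and HSFA7B (-0.44) did not pass the test. Of 19 stress transcription factors, 8 were higher and 2 lower (median 0.73), with the higher share near the 37% of all tested genes. Both lower ones, RHL41 (-0.68) and ERF6 (-1.30), changed sign under library totals. DREB2A, a drought and heat regulator, had 1537, 1690 and 1906 CPM in nuclei and 342, 393 and 519 CPM in cytoplasm, with no overlap (2.06 ± 0.20, adjusted p = 6.66e-13, edgeR), though its span overlaps another gene.

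**Figure D2:**
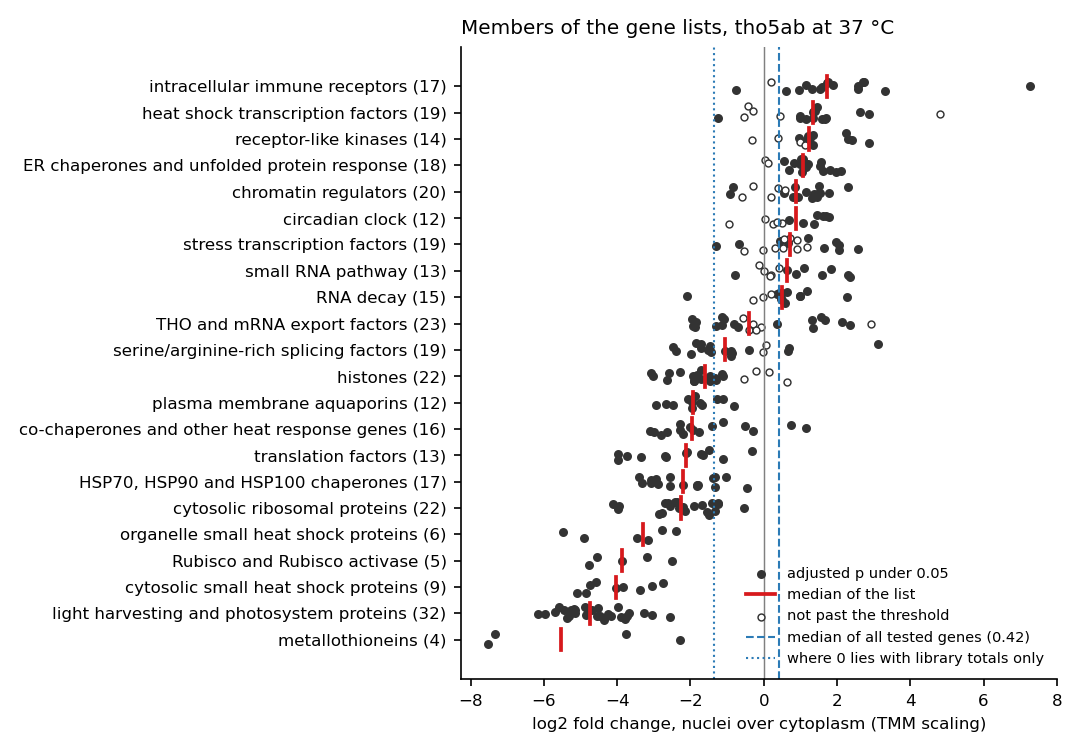
Log2 fold change of nuclei over cytoplasm for each tested member of 22 gene lists, filled where the adjusted p was under 0.05; red bars are list medians, the dashed line is the median of all tested genes (0.42) and the dotted line is where 0 would lie with library totals only. The lists run from metallothioneins (median -5.55) to intracellular immune receptors (median 1.73).

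Chaperones of the endoplasmic reticulum, the compartment in which secreted proteins fold, were on the opposite side from their cytosolic relatives. Of 18 genes for these chaperones and for the unfolded protein response, 16 were higher in nuclei and 0 were lower (median 1.06). In 15 the nuclear libraries lay wholly above the cytoplasmic ones, against 27.4% of all tested genes. The other 2 were PDIL1-1 (0.03) and SDF2 (0.11), which did not pass the test. BIP2, an HSP70 of the endoplasmic reticulum, had 3149, 3964 and 4384 CPM in nuclei and 785, 1244 and 2200 CPM in cytoplasm (1.54 ± 0.20, adjusted p = 3.71e-09, edgeR). BIP3, its stress-induced relative, had 57.8, 79.8 and 181 CPM in nuclei and 6.19, 20.9 and 33 CPM in cytoplasm (2.1 ± 0.36, adjusted p = 1.37e-06, edgeR). In both genes all nuclear libraries lay above all cytoplasmic ones. BIP1 (1.82) and BIP2 share near-identical stretches, so their counts cannot be fully separated. The calreticulins CRT1a (1.0), CRT1b (1.21) and CRT3 (1.96), the HSP90-type SHD (1.06) and the membrane-bound transcription factors BZIP17 (1.16) and BZIP28 (1.03), which are cut free under stress in that compartment, were higher in nuclei as well.

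Some members of these chaperone sets carry a signal in their last 4 codons, which are shown for 7 genes. Each line gives the last 30 coding bases with the stop codon, 5′ to 3′, from the TAIR10.1 reference of RefSeq, and the capitals mark the codons for HDEL or KDEL, the signal that returns a protein to the endoplasmic reticulum, or for EEVD, the end by which cytosolic HSP70 and HSP90 bind co-chaperones.
BIP2 (HDEL, chr5:16807697-16807726, minus strand): gaggaagatgagtctCACGATGAGCTCtag
BIP3 (HDEL, chr1:2929268-2929297, minus strand): gacgatggagatgatCACGATGAGTTAtag
SHD (KDEL, chr4:12551902-12551931, minus strand): caagaagagaacaccAAGGACGAACTGtag
HSC70-1 (EEVD, chr5:554055-554084, minus strand): gctggacctaagatcGAGGAGGTCGACtaa
HSP70 (EEVD, chr3:3991487-3991516, minus strand): gctggcccaaagattGAAGAAGTTGATtaa
HSP70B (EEVD, chr1:5502386-5502415, minus strand): ggaggtcccaagatcGAAGAGGTGGATtag
HSP81-2 (EEVD, chr5:22689404-22689433, plus strand): gaaggtagcaagatgGAGGAAGTCGACtaa
Over all tested genes, 30 have a representative coding sequence that ends in codons for HDEL or KDEL. Of these 15 were higher and 1 lower in nuclei, with a median log2 fold change of 1.08. That is 50% higher and 3.33% lower, against 37% and 26.9% of all tested genes, whose median was 0.42. The 9 that end in codons for EEVD were all lower in nuclei, with a median of -2.57. This split was chosen after the values were seen and overlaps the chaperone lists, so it is a description. HSP81-2 (-3.08) has a near-identical copy, HSP81-3. HSP70B (-1.38) stood at 0.02 under library totals.

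A wider class was described in the same way. A run of 19 residues with a mean Kyte-Doolittle hydropathy of at least 1.6, as membrane proteins and signal peptides tend to have, is encoded by 6667 tested genes, whose median log2 fold change was 0.82, against 0.17 for the 11312 coding genes without one. The median was higher with such a run in each of the 4 length classes used below, at -0.57 against -0.92 in the shortest and 1.34 against 0.97 in the longest. Per library, the mean log2 CPM of genes with the run minus that of genes without it was -0.46 to -0.34 in nuclei and -1.09 to -0.97 in cytoplasm. How much RNA on membranes attached to the nuclei contributes was not tested.

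By the naming rule the highest genes at the nuclear end of the axis were AIB, FMA, ABCC14, Phox1, PRP40B, A/N-InvC, CYP86A8, CUL3B, GPAT3, ICK1, ETR2 and Cand7, with log2 fold changes from 3.51 down to 2.84. AIB, a basic helix-loop-helix transcription factor without introns, had 103, 153 and 176 CPM in nuclei and 5.07, 10.7 and 28 CPM in cytoplasm (3.51 ± 0.28, adjusted p = 8.91e-16, edgeR). PRP40B, a pre-mRNA processing protein whose gene has 28 introns, had 139, 148 and 163 CPM in nuclei and 11.1, 17.2 and 25.6 CPM in cytoplasm (3.05 ± 0.26, adjusted p = 4.25e-15, edgeR). RAP2.4, an ethylene response-type transcription factor without introns, had 1690, 1896 and 1990 CPM in nuclei and 221, 255 and 342 CPM in cytoplasm (2.81 ± 0.19, adjusted p = 6.32e-19, edgeR). In all 3 the lowest nuclear library was well above the highest cytoplasmic one. The naming rule required no overlap, so the separation is no separate result.

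Of 17 intracellular immune receptors, which detect pathogen effectors, 15 were higher in nuclei and 1 lower (median 1.73), with RPP13 at 2.74, RPP4 at 2.56 and SNC1 at 1.90. The 1 lower gene, ADR1-L2 (-0.75), changed sign under library totals. Of 14 receptor-like kinases 10 were higher and 0 lower (median 1.23), among them PEPR1, a receptor for danger peptides (2.41), PSKR1, a receptor for phytosulfokine (2.29), FER (1.35) and BRI1, the brassinosteroid receptor (1.2). Of the 12 tested of 13 clock genes, 7 were higher and 0 lower (median 0.88), with PRR7 at 1.77, ELF3 at 1.69 and TOC1 at 1.44, while GI (0.03) did not pass the test. Over all tested genes 37% were higher and 26.9% lower. Of transcripts over 2334 bases, 62.2% were higher, with a median of 1.13. How far transcript length accounts for these lists was not tested.

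Genes for RNA and chromatin proteins were divided. Of 20 chromatin regulators 13 were higher and 2 lower in nuclei (median 0.89), with CLF, a histone methyltransferase whose span overlaps another gene, at 2.29 and SYD, a remodeller, at 1.16. The 2 lower ones, HDA6 and HDA19, changed sign under library totals. Of 22 histone genes 0 were higher and 18 lower (median -1.61), of which 4 changed sign under library totals. Of 13 small RNA genes 7 were higher and 1 lower (median 0.64), among them DCL2 (2.36) and DCL1 (1.84), which cut double-stranded RNA, and AGO2 (1.58). The 1 lower member, HYL1 (-0.79), changed sign under library totals, and the spans of DCL1, DCL2 and HYL1 overlap other genes. Of 15 RNA decay genes 11 were higher and 1 lower (median 0.50), with LBA1, the nonsense-mediated decay helicase, at 1.0 and the decapping protein DCP1 at -2.09. Over all tested genes 37% were higher and 26.9% lower, with a median of 0.42, so the RNA decay median lay near that of all genes. In 3 RNA decay and 5 small RNA genes the nuclear libraries lay wholly above the cytoplasmic ones, against 27.4% of all tested genes.

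The family of serine/arginine-rich splicing factors has 20 listed genes, of which 19 were tested, 3 stood higher and 14 lower in nuclei (median -1.07), of which 5 changed sign under library totals, where the median was 0.32. SR34b differed from its family with 62.4, 67.3 and 79.2 CPM in nuclei and 1.65, 9.48 and 11 CPM in cytoplasm (3.11 ± 0.33, adjusted p = 1.17e-11, edgeR). RSZ22, a member with a zinc knuckle, had 33.4, 34.4 and 44 CPM in nuclei and 154, 205 and 251 CPM in cytoplasm (-2.48 ± 0.14, adjusted p = 4.19e-22, edgeR). For SR34b and RSZ22 the fractions lay wholly apart in opposite directions. Of the 23 THO and export genes, the mutated pair included, 7 were higher and 10 lower (median -0.40, and 0.91 under library totals), against 37% and 26.9% of all tested genes. THO2, the largest THO subunit (1.56), MOS11 (2.13), SAC3A (2.35) and SAC3B (1.33), which belong to the export machinery, were higher, while TEX1, another THO subunit (-1.92), ALY4 (-1.96) and the helicase genes UAP56A (-1.31) and UAP56B (-1.15) were lower. UAP56A and UAP56B have near-identical sequences, and both changed sign under library totals, with 4 further lower members of the list. The spans of MOS11, SAC3A, TEX1, ALY4 and UAP56B overlap other genes.

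Marker genes of cell types were not evenly spread over the fractions. The leaf genes above show that both fractions hold RNA of green tissue, with a summed level of the light harvesting and photosystem list of 5133 to 6480 CPM in nuclei and 79134 to 195023 CPM in cytoplasm. All 5 guard cell markers were higher in nuclei (median 1.99), and in 3 the nuclear libraries lay wholly above, against 27.4% of all tested genes. Their summed level was low, at 106 to 151 CPM in nuclei and 31.7 to 84 CPM in cytoplasm. FMA, which drives guard cell differentiation, is not one of these markers and was named for its high rank in this comparison (3.33). Of 4 phloem markers 0 were higher and 2 lower, APL (-0.64) and PP2-A1 (-4.77), and APL changed sign under library totals. Their summed level was 64.8 to 76.2 CPM in nuclei and 207 to 320 CPM in cytoplasm, of which PP2-A1 made up 5.11 to 7.33 CPM and 135 to 217 CPM, and SUC2 (0.08) and HA3 (0.00) did not pass the test. Of 6 root markers 4 were tested and 2 were lower, EXPA7 (-1.67) and CASP1 (-3.35), with a summed level of 33.9 to 61.2 CPM in nuclei and 51 to 129 CPM in cytoplasm. Fewer cells of a type and less RNA per cell cannot be told apart in these libraries. The part of unequal recovery of cell types in the fractions was not tested.

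Transcript length and intron number were then compared per library, as differences of mean log2 CPM. The longest class of tested transcripts (over 2334 bases, 4491 genes) minus the shortest (up to 1272 bases, 4499 genes) was 1.76, 1.88 and 1.91 in nuclei and -0.16, -0.02 and 0.34 in cytoplasm. That is 1.83 higher in nuclei, without overlap (two-sided exact permutation test, p = 0.00216, the smallest that 6 against 6 allows; adjusted p = 0.0026 over 6 feature values). Intronless genes (2240) minus genes with introns (15741) gave -0.76, -0.65 and -0.39 in nuclei and -1.13, -0.92 and -0.78 in cytoplasm, 0.31 higher in nuclei without overlap (exact permutation test, adjusted p = 0.0026). Without a filter on low counts the intronless difference was 0.05 (adjusted p = 0.275), so it rests on genes above that filter. It was 0.16 with library totals, 0.17 with counts thinned to equal depth and 0.47 with a prior count of 0.5. Intronless transcripts are shorter as a group, and within the 4 length classes from shortest to longest the intronless difference between fractions was 0.23, 0.61, 0.98 and 0.91, with exact permutation adjusted p = 0.0108 in the shortest and 0.0026 in each of the other 3. The fractions overlapped in the shortest class only. In Col-0 at 37 °C the same 4 values were -0.07, -0.03, 0.11 and -0.05, and none passed the threshold (exact permutation test, adjusted p from 0.165 to 0.675).

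In gene-wise terms, the 312 intronless genes of the longest class had a median log2 fold change of 1.98, 214 of them higher (68.6%) and 13 lower in nuclei, against 1.09 for the 4179 intron-containing genes of that class, of which 61.7% were higher. In the shortest class the medians were -0.50 for 872 intronless and -0.89 for 3627 intron-containing genes. All genes of the longest class had a median of 1.13 (62.2% higher), and all of the shortest -0.81 (47.7% lower). The gene lists above were not compared within length classes. By intron number alone the median was 0.64 with 0 introns, 0.39 with 1, 0.04 with 2 to 3, 0.21 with 4 to 7, 0.56 with 8 to 12 and 0.97 with over 12. It was lowest in the middle of the range. Examples of intronless genes at both ends are AIB, CYP86A8 (2.94), Cand7 (2.84), RAP2.4, EXO70F1 (2.72) and CIPK12 (2.58) on the nuclear side and DRT112, PSRP6, MAPR2 (-5.36), PSBX (-5.26) and ROC5 (-4.98) on the cytoplasmic side.

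**Figure D3:**
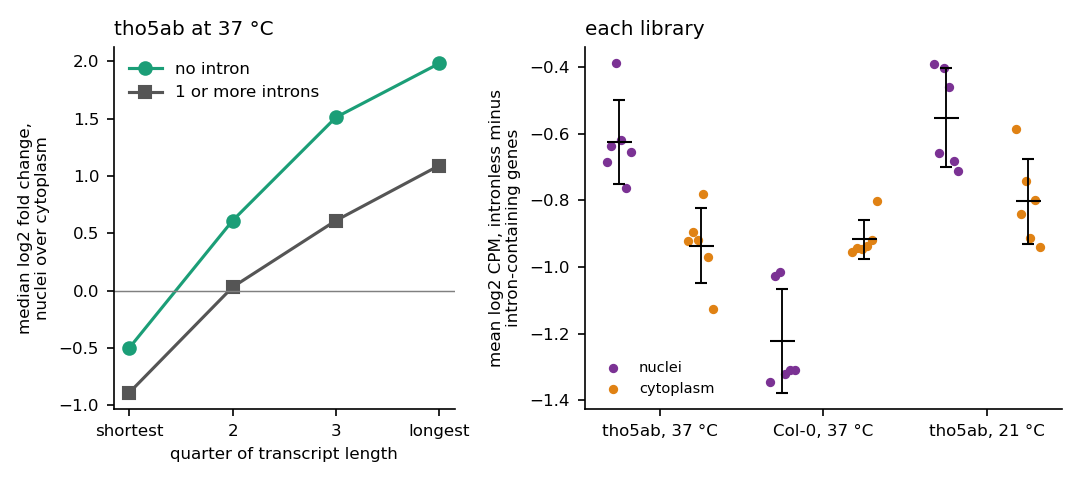
Left, median log2 fold change of nuclei over cytoplasm in tho5ab at 37 °C by class of transcript length, for genes without introns and with introns. Right, mean log2 CPM of intronless minus intron-containing genes of all lengths in each library, with mean and SD of 6 libraries. Nuclei lie above cytoplasm in tho5ab at 37 °C (by 0.31) and below it in Col-0 at 37 °C (by 0.30, a difference of -0.30). Within length classes no Col-0 difference passed the threshold.

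Between genotypes the intronless difference changed sign when all lengths were pooled. Within the 4 length classes it was -0.07, -0.03, 0.11 and -0.05 in Col-0 at 37 °C, and none passed the threshold. The values that follow are for all lengths pooled. In Col-0 at 37 °C intronless minus intron-containing genes gave -1.34 to -1.02 in nuclei and -0.96 to -0.80 in cytoplasm, a difference of -0.30, and in tho5ab at 21 °C the difference was 0.25. The genotype by fraction difference at 37 °C was 0.62 (permutation test with 100000 resamples, genotypes exchanged within fraction, adjusted p = 0.0036 over 4 values). The temperature by fraction difference in tho5ab was 0.06 (permutation test, adjusted p = 0.61), and the long minus short difference gave -0.09 by genotype (adjusted p = 0.57) and -0.18 by temperature (adjusted p = 0.57). Some libraries had raised counts on genes nested opposite a host gene, of these 12 nuclear replicate 4 and cytoplasmic replicate 5. Without all such libraries, a choice made after the values were seen, the genotype by fraction value was 0.67 (permutation test, p = 0.0012).

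In Col-0 at 37 °C 32.6% of the tested genes were higher and 28.9% lower in nuclei. Single genes were compared with Col-0 at 37 °C by the interaction of genotype and fraction, in which 1776 genes (9.88%) were relatively more nuclear and 865 (4.81%) relatively less nuclear in tho5ab, with a median of 0.06 over all tested genes. With DESeq2 size factors these counts were 1431 and 1457 and the median was -0.12. The highest by the naming rule were EMB3120, needed for embryo development (4.03), MBD10, a methyl-CpG-binding domain protein (3.67), PELPK1, a proline-rich cell wall protein (3.45), Cand7, a candidate G-protein-coupled receptor (3.43), CIPK12, a calcium-signalling kinase (3.42), and CSP3, a cold shock domain protein (3.32). CIPK12 had 885, 1103 and 1251 CPM in nuclei and 106, 151 and 339 CPM in cytoplasm of tho5ab, and 141, 163 and 168 CPM in nuclei and 203, 281 and 362 CPM in cytoplasm of Col-0. All its nuclear libraries lay above the cytoplasmic ones in tho5ab and below them in Col-0 (interaction 3.42 ± 0.26, adjusted p = 1.24e-14, edgeR). CIPK12 is also among the intronless genes named above, for which separation in tho5ab was required. EMB3120 had 67.9, 85.9 and 111 CPM in nuclei and 9.08, 13.1 and 38 CPM in cytoplasm of tho5ab, and 14.2 to 20.6 CPM in nuclei and 37.4 to 82.7 CPM in cytoplasm of Col-0 (4.03 ± 0.38, adjusted p = 1.21e-11, edgeR). MBD10 (0.99) and PELPK1 (0.85) overlapped between the tho5ab fractions, and CSP3 (-0.09, adjusted p = 0.67, edgeR) did not pass the test there. Of these 6 genes, 5 have no intron and MBD10 has up to 2, while 2240 of all 17981 tested genes have none.

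Heat genes were among those that differed between genotypes. HSP70 stood at -1.03 in tho5ab and -3.86 in Col-0 (interaction 2.83 ± 0.20, adjusted p = 6.04e-16, edgeR), with 1473 to 3240 CPM in Col-0 nuclei and 30492 to 35884 CPM in Col-0 cytoplasm. HSP70B, whose gene has no intron, stood at -1.38 and -4.38 (3.01 ± 0.34, adjusted p = 1.63e-09, edgeR), whereas HSC70-1 stood at -2.57 and -2.56 (0.00 ± 0.17, adjusted p = 1, edgeR). Of the 17 HSP70, HSP90 and HSP100 genes 6 were relatively more nuclear and 4 relatively less nuclear than in Col-0, and of the 9 cytosolic small heat shock protein genes 6 and 1. The regulators DREB2A (2.21), HSFA2 (1.97), HSFB1 (1.68) and the coactivator MBF1C (1.98) were relatively more nuclear in tho5ab. DREB2A was at -0.14 and HSFA2 at -0.52 in Col-0, where the median of all tested genes was 0.24. MBF1C, whose span overlaps another gene, stayed on the cytoplasmic side in both genotypes, at -2.81 in tho5ab and -4.80 in Col-0. Of the 18 endoplasmic reticulum genes 11 were relatively more nuclear and 0 less (median interaction 0.84), with BIP3 at 1.83, BIP1 at 1.6, BIP2 at 1.59 and SHD at 0.81. BIP2 had 752 to 1000 CPM in nuclei and 676 to 1122 CPM in cytoplasm of Col-0, where the fractions overlapped.

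The opposite direction was taken by some photosynthesis and splicing factor genes. Of the 32 light harvesting and photosystem genes 13 were relatively less nuclear and 2 relatively more nuclear in tho5ab than in Col-0 (median interaction -0.50), with LHCA2 at -1.16 and the exceptions PSAD-1 (1.23) and PSAD-2 (1.6). Of the 19 splicing factors 6 were relatively less nuclear and 0 more, led by RSZ22 (-1.63 ± 0.19, adjusted p = 2.73e-09, edgeR), which stood at -0.85 in Col-0. CYP97B3, a plastid cytochrome P450 (-1.75), LOX2, a lipoxygenase of jasmonate synthesis (-1.69), RGP1, which takes part in making cell wall arabinose (-1.62), GS2 (-1.51) and NSP1, a nitrile specifier of glucosinolate breakdown (-1.43), were the other lowest. NSP1 has a near-identical copy, NSP4. Of 22 histone genes 9 were relatively more nuclear and 0 less (median interaction 0.72), with the H2B genes HTB1 at 2.42 and HTB4 at 1.49. The medians of the endoplasmic reticulum, photosystem, splicing factor and histone lists kept their sign with DESeq2 size factors and with library totals.

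**Figure D4:**
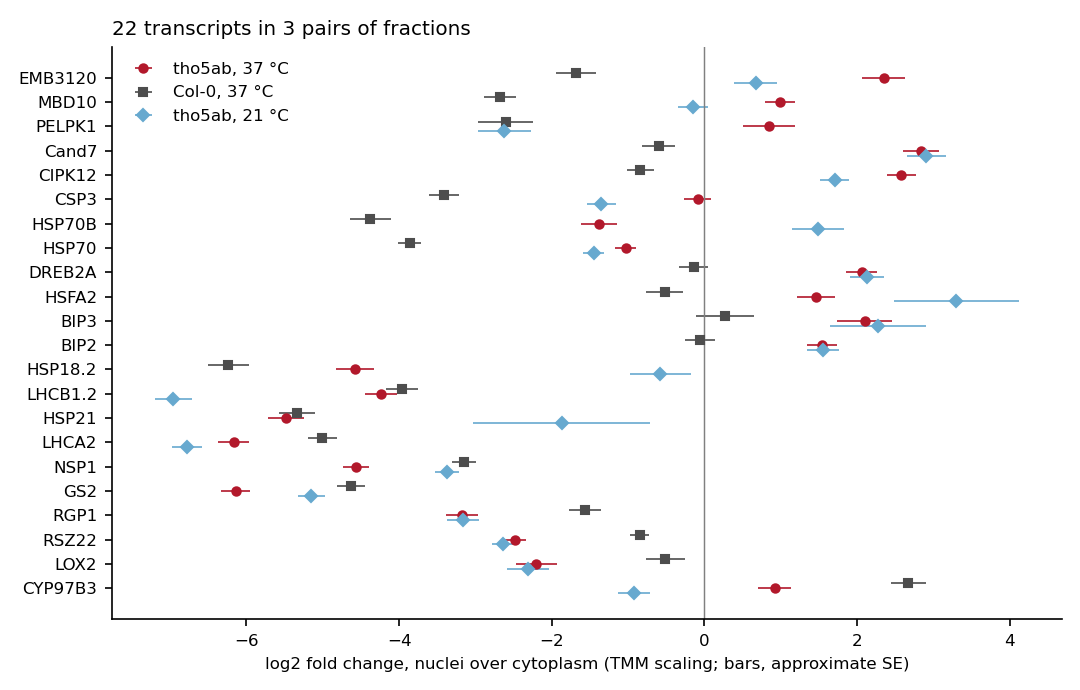
Log2 fold change of nuclei over cytoplasm for 22 transcripts in tho5ab at 37 °C (circles), Col-0 at 37 °C (squares) and tho5ab at 21 °C (diamonds), with approximate standard errors. The transcripts from EMB3120 down to HSP18.2 lie farther to the nuclear side in tho5ab than in Col-0 at 37 °C, and those from LHCA2 down to CYP97B3 farther to the cytoplasmic side.

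In tho5ab at 21 °C 40.5% of the tested genes were higher and 27.4% lower in nuclei. Against that, 1612 genes (8.97%) were relatively more nuclear at 37 °C and 1451 (8.07%) relatively less nuclear, with a median of -0.04 over all tested genes. Small heat shock protein genes passed the filter on low counts through the 37 °C libraries, so no count of them is given for this comparison. At 21 °C HSP18.2 was low, with 1.42 to 5.54 CPM of HSP18.2 in nuclei and 1.15 to 7.51 CPM in cytoplasm, where the fractions overlapped. The size of its interaction (-4.0 ± 0.42) rests on these low values. HSP17.6A, HSP17.6II and ATHSP22.0 had 0 counts in every cytoplasmic library at 21 °C, so the size of their interaction depends on the prior count. HSP21 and HSP23.6-MITO had 0 CPM in the median cytoplasmic library at 21 °C, so theirs rests on near-zero counts. HSP101 went from 0.56 at 21 °C to -3.33 at 37 °C (interaction -3.89 ± 0.28, adjusted p = 6.9e-15, edgeR). At 21 °C HSP101 had 23.3 to 34 CPM in nuclei and 10.4 to 33.5 CPM in cytoplasm, and the fractions overlapped.

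Light harvesting and photosystem genes moved the other way with temperature. Of the 32, 20 were relatively more nuclear at 37 °C than at 21 °C and 0 less (median interaction 0.84). LHCB1.2, an antenna protein of photosystem II, had 204, 260 and 298 CPM in nuclei and 2467, 5213 and 6727 CPM in cytoplasm at 37 °C, and 45.5, 70.7 and 100 CPM in nuclei and 6225, 8567 and 13082 CPM in cytoplasm at 21 °C. It stayed far to the cytoplasmic side at both temperatures, at -4.24 and -6.96 (interaction 2.72 ± 0.27, adjusted p = 6.27e-11, edgeR), and it has a near-identical copy, LHCB1.3. PELPK1 (3.46), LHB1B1 (2.44), ERD14, a dehydrin (2.42), NFS1, a cysteine desulfurase of mitochondria (2.37), and UGP2, which makes UDP-glucose (2.34), were the other highest by temperature. The 10 ribosomal protein genes of 22 that were relatively more nuclear at 37 °C, with 2 relatively less (median interaction 0.72), included RPL3A (1.27). The endoplasmic reticulum genes had 1 relatively more nuclear member and 0 less (median interaction -0.07), and BIP2 stood at 1.54 at 37 °C and 1.55 at 21 °C.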

How the data were processed

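RNA of 48 fraction libraries was sequenced after rRNA depletion, and ERCC spike-ins were added according to the labels, although the table holds 0 spike-in rows, so no absolute scale was set. The authors deposited whole-number counts per gene. Per the submitters' processing notes, STAR 2.7.8a, Picard, UMI-tools, featureCounts and TAIR10 were used; the strand setting is not given in the sources used here, so overlapping genes may share reads. The members and gene lists were chosen with earlier results of these data known. From the counts of 27420 genes, edgeR 4.0.16 in R 4.3.3 kept 17981 genes by filterByExpr, scaled by TMM, and fitted all 48 libraries in 8 groups with the quasi-likelihood test and Benjamini-Hochberg adjustment at 0.05. Contrasts were nuclei against cytoplasm in tho5ab at 37 °C, its interaction with genotype, and its interaction with temperature. The standard error is the absolute log2 fold change over the square root of F. Features used mean log2 CPM per library (prior count 2), with exact permutation over 924 splits, or 100000 resamples for interactions. Gene models, lengths and introns came from the TAIR10.1 RefSeq annotation. The genes named are the targets, the 12 highest and 12 lowest by the main contrast (mean log2 CPM of at least 5, no overlap between fractions or with another gene's span), the 6 highest and 6 lowest intronless genes and genes of each interaction, and list members. The fit of nuclei against cytoplasm, in the 12 libraries alone, and the exact permutation test were tried on simulated data. The fit of all 48 libraries and the interactions were not tried in that way. Alternatives were DESeq2 1.42.0 and its size factors, library totals, no filter, fits of the compared groups only, a replicate block, thinning to 1000000 counts, left-out replicates, and leaving out opposite-strand overlaps or 16 libraries with raised counts on genes nested opposite a host. Of 144 genes in the tables of named genes, 31 overlap another gene's span and 9 have a near-identical copy (95% of aligned bases equal, across 25% of the transcript or more). The floor for a count of 0 covers counting error only. The standard errors also carry the spread between libraries estimated in the fit.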

Additional observations from a re-analysis of the deposited data

Results flagged for a closer look

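Single libraries stood apart from the other 5 of their group in 6 values, a kind of gap that chance gives in about 1 in 20 groups. Many genes were screened in both fractions, so some of these gaps may be due to chance. Nuclear replicate 7 was high for THO5A (118 CPM) and BIP3 (181 CPM), and nuclear replicate 2 for Cand7 (218 CPM). Cytoplasmic replicate 6 was high for AIB (28 CPM) and EMB3120 (38 CPM). Nuclear replicate 4 was low for long minus short transcripts (1.76).

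The nuclear over cytoplasmic difference of named genes differed between tho5ab and Col-0 at 37 °C by edgeR's interaction test. On the log2 scale tho5ab was farther to the nuclear side for EMB3120 (4.03), MBD10 (3.67), PELPK1 (3.45), Cand7 (3.43), CIPK12 (3.42), CSP3 (3.32), EXO70F1 (3.13), HSP70B (3.01), HSP70 (2.83), AIB (2.26), DREB2A (2.21), HSP17.6II (2.03), MBF1C (1.98), HSFA2 (1.97), BIP3 (1.83), HSFB1 (1.68), HSP18.2 (1.66), HSP17.6A (1.65), BIP1 (1.6), BIP2 (1.59) and SHD (0.81). It was farther to the cytoplasmic side for CYP97B3 (-1.75), LOX2 (-1.69), RSZ22 (-1.63), RGP1 (-1.62), GS2 (-1.51), NSP1 (-1.43), LHCA2 (-1.16) and HSP101 (-0.77). The intronless difference over all lengths pooled also differed between genotypes, by 0.62 in the permutation test.

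Between 37 °C and 21 °C in tho5ab, the same difference was higher at 37 °C for PELPK1 (3.46), LHCB1.2 (2.72), LHB1B1 (2.44), ERD14 (2.42), NFS1 (2.37), UGP2 (2.34), CYP97B3 (1.84) and EMB3120 (1.68). It was lower at 37 °C for HSP18.2 (-4.0), HSP101 (-3.89) and HSP90.1 (-1.72). HSP18.2 had at most 7.51 CPM in cytoplasm at 21 °C, so its size rests on low values. The HSP101 fractions overlapped at 21 °C, with at most 33.5 CPM in cytoplasm. HSP23.6-MITO (-4.12) and HSP21 (-3.60) were lower too, but the median cytoplasmic library at 21 °C had 0 CPM of either, so these sizes rest on near-zero counts. The same holds for HSP17.6A (-8.55), HSP17.6II (-7.93) and ATHSP22.0 (-6.29), whose fitted sizes depend on the prior count because the cytoplasmic libraries at 21 °C had 0 counts.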

How the results depend on the processing

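Nuclei against cytoplasm gave 12245 higher and 2160 lower genes with library totals and 3246 and 3126 after thinning, which lowers the depth by construction. Genotype by fraction gave 1457 lower genes with DESeq2 size factors, 2510 with the DESeq2 Wald test, and 308 higher and 94 lower after thinning. Temperature by fraction gave 2735 lower genes with the Wald test and 211 higher and 145 lower after thinning. Leaving out each replicate gave 6265 to 6477 higher and 4559 to 4657 lower genes for the fractions, 1392 to 1802 and 551 to 859 for genotype (551 without replicate 4), and 1226 to 1470 and 1060 to 1476 for temperature. The intronless difference was 0.27 to 0.34 and the long minus short difference 1.78 to 1.88 in those fits. The intronless difference was 0.16 with library totals, 0.17 after thinning and 0.47 with a smaller prior count, each over 1.5 times from 0.31 and in the same direction. Without a filter the intronless difference was 0.05 (exact permutation test, adjusted p = 0.275). The causes of the changes under other scalings, tests and filters were not tested. With library totals the named genes that changed sign for nuclei against cytoplasm were CSP3 (1.3), ERD14 (1.18), HPR1 (1.1), HSFA7B (0.87), HSFA7A (0.79), HYL1 (0.59), SR30 (0.49), HDA6 (0.46), HSP70 (0.36), UAP56B (0.21), HSFB4 (0.12), UAP56A (0.04) and HSP70B (0.02). Deviations of same-numbered nuclear and cytoplasmic libraries correlated at 0.25, 0.15, -0.10, -0.19, 0.13 and 0.27 for replicates 1, 2, 4, 5, 6 and 7. The highest value was 0.48, between nuclear replicate 4 and cytoplasmic replicate 5, both with raised counts on nested genes. These values do not settle whether the numbers pair the libraries, and the main fit did not pair them. With the replicate block the counts were 5702 and 4008 for the fractions, 1663 and 586 for genotype, and 916 and 741 for temperature, and the intronless and long minus short differences stayed at 0.31 and 1.83. Cytoplasmic depth limits what can be seen of low genes.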

Other observations

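RR3, a response regulator of cytokinin signalling, was singled out after its values were seen. Its span overlaps another gene, so the count may hold reads of that gene. RR3 took 5.84%, 9.08% and 11.8% (lowest, median and highest) of the counts of a cytoplasmic library and 0.227%, 0.355% and 0.406% of a nuclear one, with a log2 fold change of -6.08 ± 0.25. The fractions lay wholly apart.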
